A study of Homo sapiens with 12 samples.

Results

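Histone cluster genes encode the replication-dependent H1, H2A, H2B, H3 and H4 proteins that package new DNA. They were taken as every row of the deposited count table whose symbol begins with HIST, a cluster number from 1 to 4 and H, which gave 89 of 56638 symbols. By histone type there were 8 H1, 22 H2A, 26 H2B, 17 H3 and 16 H4 rows, and 71 of the 89 were coding genes in RefSeq. RNA came from NT2/D1, a human pluripotent embryonal carcinoma cell line. The 12 libraries fell into 4 groups of 3: CRISPR/Cas9 control cells and cells in which CRISPR/Cas9 had deleted PRMT6, each left untreated or given 1 µM all-trans retinoic acid (ATRA), which starts differentiation of this line, for 3 days. All 4 groups thus derived from NT2/D1 and had passed through CRISPR/Cas9. The titles of all 6 knockout libraries carry the same name, KO-2. The series asked which transcripts depend on PRMT6, an arginine methyltransferase that modifies histones. The labels do not state whether libraries of 1 group came from different cultures. Every p-value below therefore reflects only how far these particular libraries scatter, and that scatter may be technical.

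Most replication-dependent histone mRNAs are unusual in ending without a poly(A) tail. A conserved stem-loop near the end of the message is bound by the stem-loop binding protein SLBP, the RNA is cut just after it with the help of the U7 snRNP, and the finished mRNA is translated and then destroyed when DNA synthesis stops. Some histone genes also make a longer message that runs past the stem-loop to an ordinary polyadenylation signal, and such forms are known from differentiated and non-dividing cells. The libraries were made with a stranded mRNA kit, which selects RNA by its poly(A) tail. The levels below are therefore levels in tail-selected RNA and do not measure the whole pool of histone mRNA.

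The stem-loop is shown first because messages that end just after it lack the tail by which such a library selects RNA. A 16-base stem-loop pattern, with GG opening and CC closing the stem and fixed bases in the loop, was searched on the sense strand of GENCODE v44 transcripts after the stop codon and was found in all 71 coding members. It lay within the last 100 bases of the shortest coding transcript of 69 of them, against 27 of 19605 other coding genes (0.138%). Capitals mark the stem-loop, and the lower-case letters are its 5 bases before and up to 5 after, in DNA letters, 5′ to 3′. The first 7 genes below carry most of the results, and the last 2 are an H3 and an H4 gene for comparison.
HIST1H1C: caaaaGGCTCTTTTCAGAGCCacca
HIST1H2AC: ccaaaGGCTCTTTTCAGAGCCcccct
HIST3H2A: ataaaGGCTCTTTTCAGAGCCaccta
HIST2H2BE: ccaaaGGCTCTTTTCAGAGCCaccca
HIST1H2BK: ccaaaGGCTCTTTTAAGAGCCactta
HIST1H2BD: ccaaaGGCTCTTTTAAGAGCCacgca
HIST1H2BJ: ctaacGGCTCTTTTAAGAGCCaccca
HIST1H3B: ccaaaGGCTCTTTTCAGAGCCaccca
HIST1H4C: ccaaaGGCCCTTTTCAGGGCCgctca

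The form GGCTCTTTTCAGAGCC was present in 41 members. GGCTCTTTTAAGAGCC, with another loop base, was present in 10, among them HIST1H2BK, HIST1H2BD and HIST1H2BJ. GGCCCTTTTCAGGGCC, with another stem pair, was present in 10, all of them H4 genes. The genes with the highest levels thus carried an intact stem-loop, and 2 of its forms occurred among them. Annotated transcripts ran 1729 bases past the stem-loop for HIST2H2BE, 1128 for HIST1H2AC and 1110 for HIST3H2A, but only 4 for HIST1H1C and 5 for HIST1H2BK. These lengths come from transcripts that keep the stem-loop after the reading frame, and forms without it were not counted. In such transcripts a long annotated tail was a feature of some of these genes and not of others.

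The libraries held 25.5 to 60.4 M counts each, and histone rows held 2147 to 4860 counts of a library (0.00567% to 0.0137%). PRMT6 stood at 22.4, 1.94 and 8.94 CPM (counts scaled to a common library size with TMM factors) in untreated controls and 29.9, 15.9 and 26.8 CPM in controls with ATRA, against 0 to 0.0587 CPM in the 6 knockout libraries, which is at most 2 counts' worth and matches the labels. Some knockout libraries were close to copies of each other. Over genes with at least 20 counts, a chi-square per gene of 1.91 separated knockout ATRA 1 from 3 and 9.01 separated knockout untreated 1 from 2, whereas the remaining 10 same-group pairs gave 78.1 to 416. Both exceeded sampling noise, but the labels do not state whether these pairs are technical repeats. If they are, the p-values and the SDs with n = 3 count 1 culture more than once. All 12 libraries were kept, and results are also given with each such pair summed. The pluripotency markers listed for the line were present, with POU5F1 at 147 to 1524 CPM. The summed level of 12 stromal markers was 632 to 2433 CPM in controls, 13990 to 17040 CPM in 4 knockout libraries and 3982 and 3035 CPM in knockout untreated 3 and knockout ATRA 2, which stand apart.

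Counts of histone rows came mainly from a few genes. Of 89 rows, 70 had a count in some library and 19 had none, 38 passed the filter on low counts and 51 did not. Those 51 rows reached at most 32 counts in a library and a mean of 0.255 CPM, where 3 counts are worth 0.0433 to 0.128 CPM. The rows that were tested were 4 H1, 11 H2A, 12 H2B, 5 H3 and 6 H4. The 6 genes with a mean of at least 5 CPM, a limit chosen after the values were seen, held 73% of all histone counts. They were the H2B genes HIST1H2BK (13.1 CPM over the 12 libraries), HIST2H2BE (13 CPM) and HIST1H2BD (7.03 CPM), the H2A genes HIST1H2AC (11.5 CPM) and HIST3H2A (8.82 CPM), and the linker histone gene HIST1H1C (12.5 CPM). HIST1H2BD was the lowest of the 6, and the next gene, HIST1H2BJ (2.49 CPM), lay outside the limit.

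Levels of different genes can be compared only per length. Per kb of the deposited gene length, HIST3H2A had 17.8 CPM, HIST1H1C 17.1, HIST1H2BK 16, HIST1H2BD 7.82 and HIST1H2AC 6.88. HIST1H2BH, a further H2B gene, followed with 3.17 and HIST2H2BE with 2.93. The order depends on the length used: by the longest GENCODE v44 transcript HIST2H2BE came to 5.86 and HIST3H2A to 5.46 CPM per kb. The deposited lengths of HIST2 rows were a median of 2 times the longest transcript, against 1 for the other clusters. Summed over rows, the level per kb of deposited length was 37.7 for H2B, 33.2 for H2A, 18.8 for H1, 7.75 for H3 and 4.77 for H4. The core histones H3 and H4, which pair in the nucleosome in equal numbers with H2A and H2B, were thus lower than both in this tail-selected RNA.

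**Figure D1:**
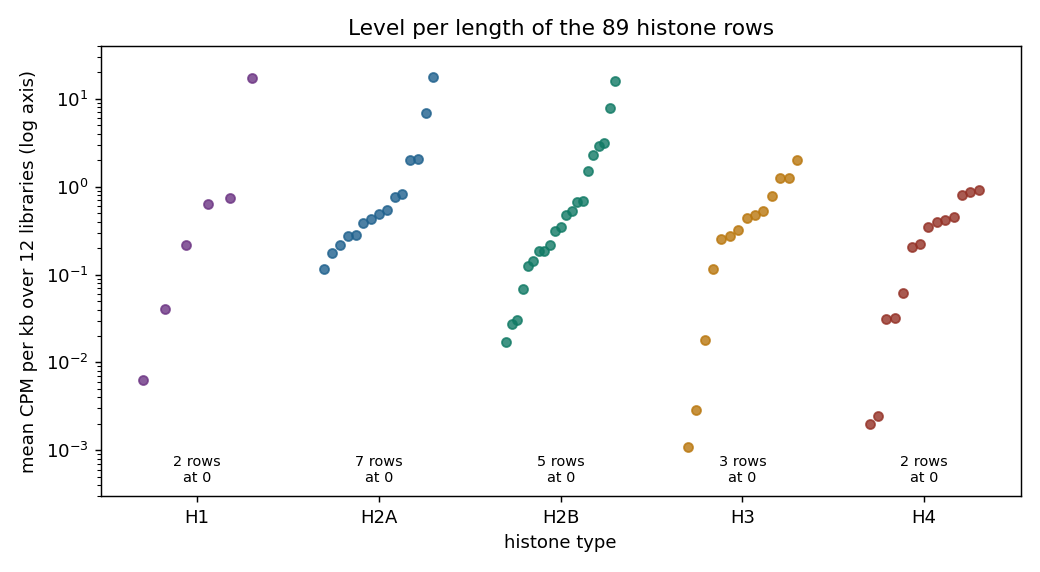
Each point is 1 histone row, placed by histone type on the x axis, with its mean CPM per kb of deposited gene length over the 12 libraries on a log y axis; the text above each type name gives the rows with no counts. A few H1, H2A and H2B genes stand above the others (HIST3H2A at 17.8, HIST1H1C at 17.1 and HIST1H2BK at 16), and the highest H3 row, HIST1H3G, is at 2.01.

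Coding rows outside the HIST2 cluster were also split by annotation. In 15 of them the deposited gene model was at least 200 bases longer than the shortest coding transcript, and their median level was 0.782 CPM, with 6 at 1 CPM or more. In the other 44 the median was 0.182 CPM, with 4 at 1 CPM or more. A longer model can collect more counts for that reason alone, so this is a description. HIST1H1C and HIST3H2A were high without a longer deposited model.

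On the TMM scale the summed levels of H1, H2A and H2B rows were higher in every knockout library than in every control library of the same condition. For H3 rows this held in untreated cells only, and for H4 rows in neither condition. Scaled by library totals alone, H1 with ATRA overlapped, at 16.3 CPM in control ATRA 1 and 16 CPM in knockout ATRA 3. Untreated H3 then overlapped too, at 3.18 CPM in control untreated 3 and 2.88 CPM in knockout untreated 2. H2B rows summed to 28.3, 19.7 and 20.4 CPM in untreated controls and 41.2, 43.8 and 68 CPM in untreated knockout cells, a ratio of means of 2.24. With ATRA they summed to 31.9, 21.4 and 31.8 CPM in controls and 59.4, 68.3 and 57.4 CPM in knockout cells, a ratio of 2.18. In both conditions every knockout library lay above every control library.

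H2A rows stood at 18.1 ± 1.45 (SD, n = 3) in untreated controls against 30.2 ± 8.3 CPM in the knockout, and at 21.5 ± 4.84 against 37.8 ± 5.34 CPM with ATRA. H1 rows stood at 7.37 ± 1.28 against 18.6 ± 5.35 CPM untreated and 11.3 ± 4.48 against 18 ± 1.71 CPM with ATRA. The groups did not overlap for these types either, apart from H1 with ATRA on library totals. H3 rows stood at 2.51 ± 0.3 against 4.81 ± 2.43 CPM untreated and 4.43 ± 1.84 against 4.04 ± 1.03 CPM with ATRA. H4 rows stood at 2.95 ± 0.684 against 3.56 ± 0.804 CPM untreated and 5.29 ± 1.59 against 4.4 ± 0.734 CPM with ATRA. For H3 with ATRA and for H4 in both conditions the genotypes overlapped, and with ATRA the control mean was the higher one. These sums get no test.

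**Figure D2:**
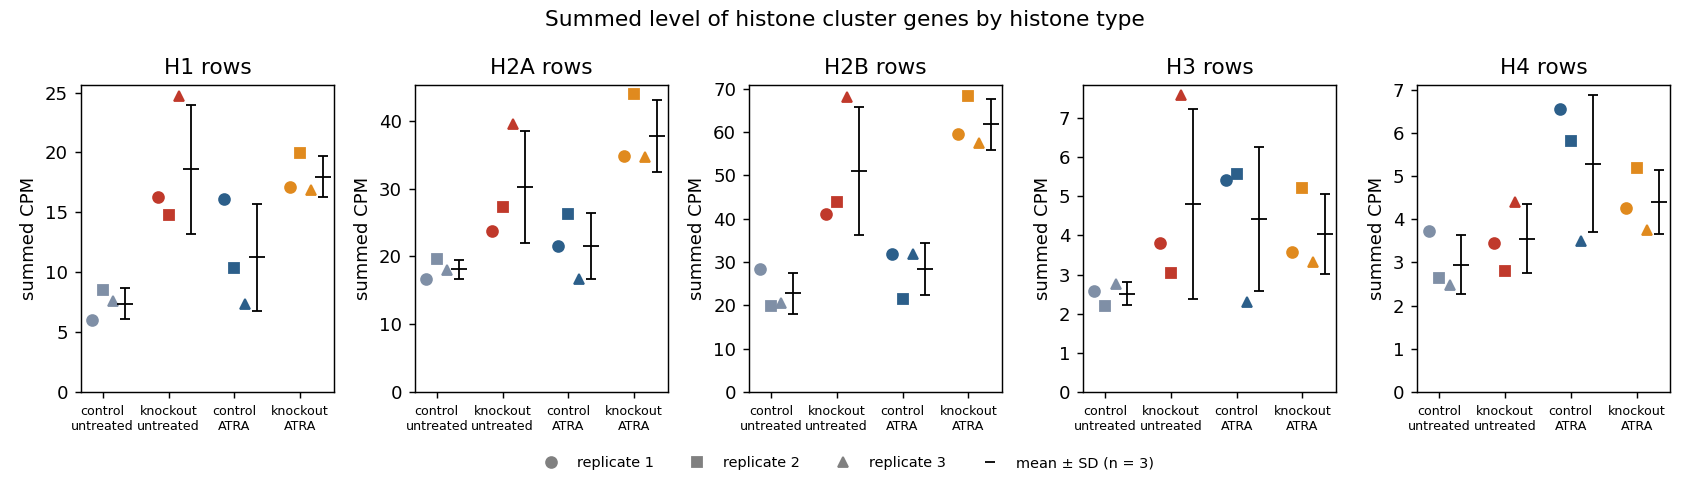
Each panel gives, for 1 histone type, the summed CPM of its rows (y axis, from 0) in each of the 12 libraries by group (x axis); symbols mark replicate numbers and the black bar is the mean ± SD of 3 libraries. On the TMM scale plotted, knockout libraries lie above controls for H1, H2A and H2B (H2B ratio 2.24 untreated and 2.18 with ATRA). For H3 they do so in untreated cells only, and H4 libraries of both genotypes overlap. On library totals the separation does not hold for H1 with ATRA or for untreated H3.

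In untreated cells, PRMT6 knockout libraries had more of 7 histone members and less of none. edgeR's quasi-likelihood test called 7 of 38 tested members higher (18.4%) and 0 lower at an adjusted p under 0.05, where 13% of all 19130 tested genes were called higher and 21.9% lower. At an unadjusted p under 0.05 the counts were 12 higher and 0 lower of the 38, against 19% and 28.3% of all genes. The libraries of the genotypes did not overlap for 11 members, all higher in the knockout (28.9%, against 20.9% of all genes), and for 0 in the other direction (27% of all genes). The median log2 fold change of the 38 was 0.57, with 28 above 0 and 10 below, and that of all tested genes was -0.11. The share called higher was thus close to that of all genes and is no result about the members as a set. The share called lower was below that of all genes. HIST2H2AA3, among the 7, had passed the filter on low counts only through knockout libraries.

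HIST1H1C encodes the linker histone H1.2, which binds DNA between nucleosomes. It stood at 5.31, 7.66 and 6 CPM in untreated controls and 15.3, 14 and 23.5 CPM in the knockout. All knockout libraries were above all controls, and the log2 fold change was 1.48 ± 0.3 (SE), a 2.78-fold difference with an adjusted p of 0.00582. With the GC trend of each library removed it was 0.86 with an adjusted p of 0.0661, so that call ends. GC content moved with genotype. Across 16379 genes, which are not independent replicates, the rank correlation of a library's log2(CPM + 0.5), relative to the mean of all libraries, with GC content was -0.4 to 0.0977 in controls and 0.136 to 0.508 in knockout libraries. Tested histone members had a median GC content of 55.4%, against 48.8% for all tested genes with a value. The other H1 genes named were HIST1H1E at 0.294 to 0.75 CPM in untreated controls and 0.327 to 0.557 in the knockout (adjusted p = 0.875), and HIST1H1B at 0.187 to 0.317 and 0.246 to 0.642 CPM (adjusted p = 0.448). The H1 sum was therefore mostly 1 gene.

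Among H2A genes, which encode the partner of H2B in the nucleosome, 3 of 11 were called higher in untreated cells. HIST3H2A stood at 4.32, 7.77 and 5.52 CPM in controls and 10.1, 10.5 and 11.1 CPM in the knockout, whose 3 libraries were close together and all above the controls. Its log2 fold change was 0.84 ± 0.29 (adjusted p = 0.0398). That call was lost without control untreated 1 (0.67, adjusted p = 0.0855) or 3 (0.8, 0.114), without knockout untreated 1 (0.88, 0.0807), 2 (0.85, 0.0977) or 3 (0.81, 0.0895), without knockout ATRA 1 (0.85, 0.0588) or 3 (0.85, 0.0583), with the GC trend removed (0.21, 0.698), without a filter on low counts (0.8, 0.125), with the replicate block (0.88, 0.0505), with the compared groups only (0.91, 0.0556) and with the near-identical pairs summed (0.87, 0.125).

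HIST2H2AA3, a low gene, stood at 0.214, 0.141 and 0.0577 CPM in controls and 0.422, 0.654 and 0.514 CPM in the knockout. The groups did not overlap, and the log2 fold change was 1.99 ± 0.52 (adjusted p = 0.0137). None of its 50-base words is unique to it among annotated transcripts, since the HIST2 cluster holds a near-identical copy, so its counts are uncertain. It passed the filter on low counts only through knockout libraries (12 to 21 counts, against 2 to 8 in controls). Its calls are thus no support for a genotype difference. The untreated call was lost without control untreated 3 (1.58, adjusted p = 0.0567) or knockout untreated 2 (1.8, 0.0615), with the GC trend removed (1.56, 0.0516) and with the near-identical pairs summed. HIST1H2AE, outside the rule for named genes and named after its values were seen, was the third H2A call, at 0.62 to 0.961 CPM in controls and 1.26 to 1.51 CPM in the knockout (log2 0.93 ± 0.33, adjusted p = 0.0471). That call was lost without control untreated 2 (0.84, adjusted p = 0.104) or 3 (0.81, 0.143), knockout untreated 1 (1, 0.0831), 2 (0.88, 0.131) or 3 (0.91, 0.097), control ATRA 1 (0.93, 0.0607), or knockout ATRA 1 (0.93, 0.0696) or 3 (0.93, 0.0724), with the GC trend removed (0.34, 0.469), without a filter on low counts (0.89, 0.22), with the replicate block (0.95, 0.0707), with the compared groups only (0.99, 0.089) and with the near-identical pairs summed (0.94, 0.142).

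HIST1H2AC was the H2A gene with the highest count. It stood at 6.3, 6.6 and 7.67 CPM in untreated controls and 8.57, 9.91 and 19.4 CPM in the knockout. Knockout untreated 3 was well above the other knockout libraries, and no libraries of the genotypes overlapped. The log2 fold change of 0.88 ± 0.33 did not pass (adjusted p = 0.053). It passed with DESeq2 (0.96, adjusted p = 0.0168), with RLE scaling (0.96, 0.0389), over 1 CPM in at least 3 libraries (0.88, 0.0442), without knockout untreated 1 (1.1, 0.0455), control ATRA 2 (0.88, 0.0471) or control ATRA 3 (0.94, 0.0449), and with the GC trend removed (1.49, 0.0144). HIST2H2AC stood at 1.92, 2.29 and 0.779 CPM in controls and 1.34, 1.6 and 1.28 in the knockout (adjusted p = 0.736), with overlap.

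Among H2B genes 3 of 12 were called higher in untreated cells. HIST2H2BE stood at 7.87, 5.04 and 8.2 CPM in controls and 16.2, 17.3 and 14.6 CPM in the knockout. Both groups were tight and far apart, with a log2 fold change of 1.19 ± 0.28, a 2.28-fold difference (adjusted p = 0.00907). Summing the near-identical knockout pairs left 1.16 with an adjusted p of 0.0614, the only alternative that ended this call.

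HIST1H2BJ, a further H2B gene, had the largest fitted change among the 7 called in untreated cells. It stood at 1.42, 1.02 and 0.721 CPM in controls and 3.48, 3.01 and 9.08 CPM in the knockout, all above the controls. The log2 fold change was 2.3 ± 0.51 (adjusted p = 0.00708) and it stayed called under every alternative run. Without knockout untreated 3, its highest library, the value was 1.63 (adjusted p = 0.0268).

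HIST1H2BK stood at 7.21, 5.2 and 2.35 CPM in untreated controls and 10.8, 13.4 and 24.9 CPM in the knockout. The groups did not overlap and both were wide, so that a log2 fold change of 1.73 ± 0.46 had an adjusted p of 0.0143. The call was lost without control untreated 3, its lowest library (1.39, adjusted p = 0.0534), without knockout untreated 3, its highest (1.3, 0.0587), and with the GC trend removed (1.19, 0.0566). It was also lost with the near-identical knockout pairs summed and without knockout untreated 3 and knockout ATRA 2 together. Of its 50-base words 42.8% are unique to it, so part of its reads may be shared with other genes. HIST1H2BD stood at 6.41, 4.3 and 4.4 CPM in controls and 6.33, 6.05 and 12.8 CPM in the knockout, with overlap and no edgeR call (log2 0.74 ± 0.34, adjusted p = 0.101). DESeq2 called it (0.81, adjusted p = 0.0481).

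**Figure D3:**
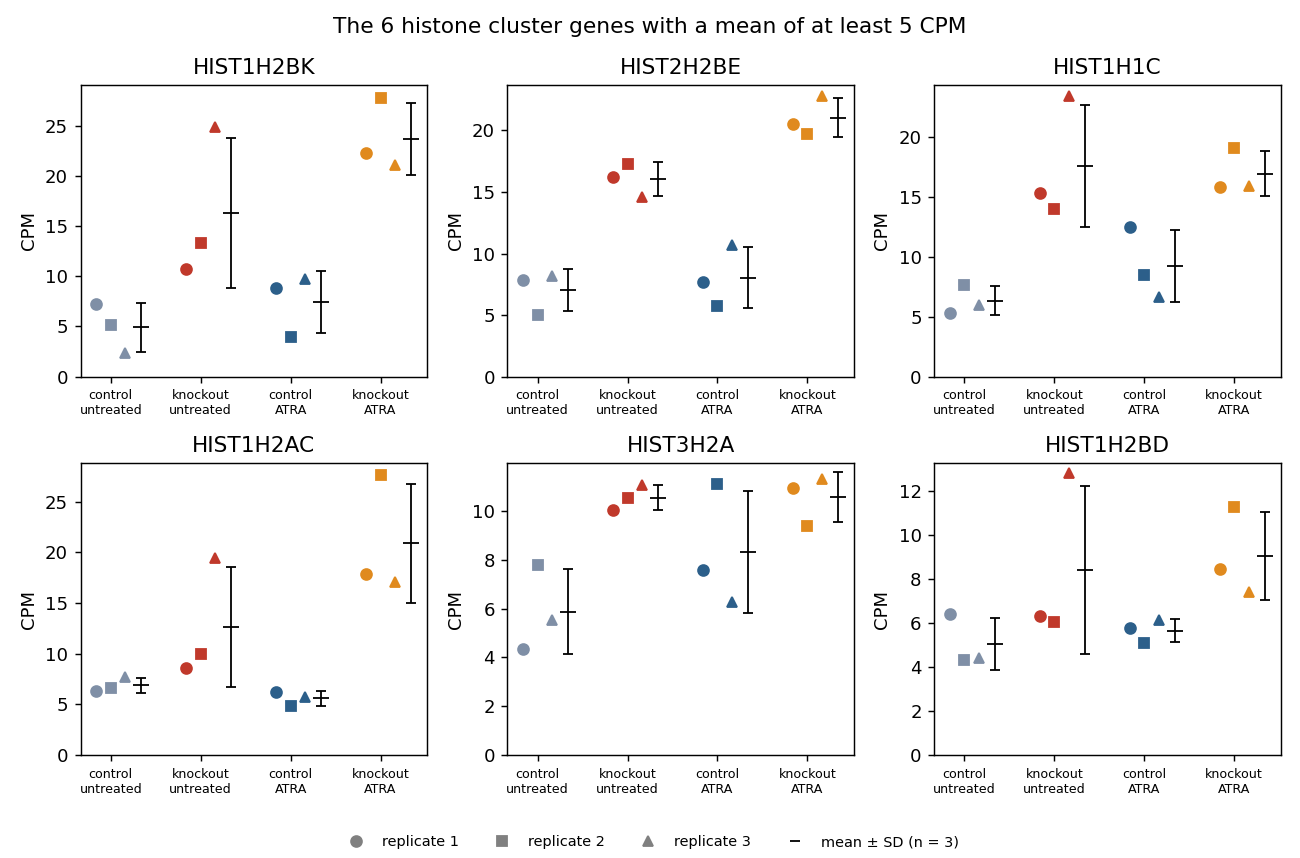
Each panel gives the CPM (y axis, from 0) of 1 of the 6 histone genes with a mean of at least 5 CPM, in each of the 12 libraries by group; symbols mark replicate numbers and the black bar is the mean ± SD of 3 libraries. The knockout libraries of HIST2H2BE lie above all controls in both conditions (14.6 to 17.3 against 5.04 to 8.2 CPM untreated), and knockout untreated 3 is the highest untreated library for the other 5 genes.

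The edgeR fit of all libraries called no H3 or H4 member in untreated cells. HIST1H3D, an H3 gene named after its values were seen, came nearest, at 0.187, 0.176 and 0.144 CPM in controls and 0.351, 0.327 and 1.24 CPM in the knockout. The groups did not overlap, and the log2 fold change was 1.89 ± 0.71 (adjusted p = 0.0549). Only 3.52% of its 50-base words are unique to it, so its counts are uncertain. It passed the filter on low counts only with the help of knockout libraries (10 to 29 counts, against 2 to 18 in controls). Its calls under that filter are thus no support for a genotype difference. DESeq2 called HIST1H3D (1.99, adjusted p = 0.0264), as did edgeR with RLE scaling (0.0469), without a filter on low counts (0.0483), with the compared groups only (0.0436), with thinning to equal depth (0.0457) and without control ATRA 3 (0.0216). HIST1H3G stood at 0.634 to 0.865 CPM in controls and 0.851 to 2.83 CPM in the knockout (log2 1.16 ± 0.58, adjusted p = 0.134). HIST1H3B (log2 0.35 ± 0.48, adjusted p = 0.586) and HIST1H3H (0.57 ± 0.5, 0.383) overlapped between genotypes. The H4 genes HIST4H4 (0.48 ± 0.4, 0.358), HIST1H4H (0.57 ± 0.41, 0.292) and HIST1H4I (-0.55 ± 0.44, 0.339) overlapped too. All of these stood below 3 CPM in every library.

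Leaving out single libraries moved the untreated count of calls over a wide range. It was 3 without control untreated 3, 4 without knockout untreated 2 and 4 without knockout untreated 3. With each near-identical knockout pair summed to 1 library it was 2, HIST1H1C and HIST1H2BJ, while the share of all genes called fell to 5.42%. With the GC trend removed it was 4, with HIST1H2AC and HIST1H2BN in place of 5 of the 7. In every alternative the calls in untreated cells were higher in the knockout and none was lower.

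With ATRA, knockout cells again had more of a few H2A and H2B members. 4 of 38 members were called higher (10.5%) and 0 lower, against 3.27% and 4.24% of all tested genes. HIST2H2AA3, among the 4, had passed the filter on low counts only through knockout libraries. At an unadjusted p under 0.05 there were 6 higher and 5 lower of the 38 (10.9% and 17.2% of all genes). Groups did not overlap for 9 members that were higher (23.7%, against 16.7% of all genes) and 5 that were lower (17.9% of all genes). The median log2 fold change was 0.17, with 21 above 0 and 17 below, against -0.06 for all genes. This comparison uses other libraries than the untreated one, but the fit shares its estimate of the spread.

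HIST1H2AC stood at 6.21, 4.81 and 5.7 CPM in controls with ATRA and 17.9, 27.6 and 17.1 CPM in the knockout with ATRA. The controls were tight and the nearest knockout library was well above them. The log2 fold change was 1.9 ± 0.34, a 3.74-fold difference (adjusted p = 0.00961), and the call was lost only with the near-identical pairs summed (2.02, adjusted p = 0.0552).

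HIST2H2BE stood at 7.69, 5.77 and 10.7 CPM in controls and 20.5, 19.8 and 22.8 CPM in the knockout, again without overlap. The log2 fold change was 1.39 ± 0.28 (2.62-fold, adjusted p = 0.0158). It was lost without knockout ATRA 1 (1.41, adjusted p = 0.0631) or knockout ATRA 3 (1.33, 0.078), the near-identical pair, and with the pairs summed (1.37, 0.122). The sizes in these fits stayed close to the full one, and the adjusted p moved.

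HIST1H2BK stood at 8.8, 3.95 and 9.7 CPM in controls and 22.3, 27.8 and 21.1 CPM in the knockout, with no overlap (log2 1.67 ± 0.46, adjusted p = 0.0457). This call was lost without knockout untreated 1 (1.67, adjusted p = 0.0601) or 2 (1.67, 0.0685), without control ATRA 1 (1.8, 0.0759) or 2 (1.36, 0.139), and without knockout ATRA 1 (1.71, 0.124), 2 (1.53, 0.103) or 3 (1.74, 0.122). It was also lost with the pairs summed (1.73, adjusted p = 0.168), the replicate block (1.72, 0.0756), the GC trend removed (1.43, 0.0522) and thinning to equal depth (1.63, 0.0526). HIST2H2AA3 stood at 0.154, 0.104 and 0.0519 CPM in controls and 0.435, 0.499 and 0.578 CPM in the knockout (log2 2.27 ± 0.55, adjusted p = 0.0298). Its call was lost without knockout untreated 2 (2.27, 0.0517), control ATRA 2 (2.29, 0.0893) or 3 (1.98, 0.0613), or knockout ATRA 1 (2.37, 0.0923), 2 (2.28, 0.0603) or 3 (2.16, 0.121), with the replicate block (2.33, 0.0509) and with the pairs summed (2.28, 0.145). For both genes the libraries themselves did not overlap in either condition.

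HIST1H1C stood at 12.5, 8.53 and 6.69 CPM in controls with ATRA and 15.8, 19.1 and 15.9 CPM in the knockout with ATRA. The groups did not overlap, but the controls were spread and the log2 fold change of 0.88 ± 0.3 was not called by edgeR (adjusted p = 0.085), while DESeq2 called it (0.92, adjusted p = 0.0237). HIST1H2BJ (1.43 ± 0.5, adjusted p = 0.0907) and HIST1H2BD (0.68 ± 0.34, 0.207) were likewise above the controls in all 3 knockout libraries without an edgeR call, and DESeq2 called HIST1H2BJ (1.48, adjusted p = 0.0306). HIST3H2A overlapped (7.6, 11.1 and 6.27 CPM against 11, 9.39 and 11.3 CPM; log2 0.34 ± 0.29, adjusted p = 0.459).

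Members with values below 0 were among the low genes. HIST2H2AC stood at 2.09, 5.51 and 1.56 CPM in controls with ATRA and 1.22, 0.851 and 1.07 CPM in the knockout, without overlap (log2 -1.54 ± 0.51, adjusted p = 0.0799). HIST1H4D, named after its values were seen, stood at 0.831, 0.936 and 0.259 CPM against 0.174, 0.088 and 0.138 CPM (log2 -2.31 ± 0.66, adjusted p = 0.052). Neither passed in the edgeR fit of all libraries, and DESeq2 called both lower (adjusted p = 0.0355 and 0.0264). edgeR called HIST1H4D lower without a filter on low counts (adjusted p = 0.0299), with the GC trend removed (0.0373), and without control untreated 1 (0.0481), knockout untreated 3 (0.0478) or control ATRA 3 (0.0273), and HIST2H2AC lower without control ATRA 3 (0.0455). HIST1H4D passed the filter on low counts only with the help of control libraries (10 to 36 counts, against 3 to 12 in the knockout). Its calls under that filter are thus no support for a genotype difference. HIST1H1E (-0.82 ± 0.57, adjusted p = 0.367) and HIST1H1B (-1.05 ± 0.64, 0.306) overlapped between genotypes.

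The remaining H3 and H4 genes showed little. With ATRA, HIST1H3G stood at 0.337 to 0.546 CPM in controls and 0.406 to 1.88 CPM in the knockout (log2 1.07 ± 0.6, adjusted p = 0.268), and HIST1H3B (-0.1 ± 0.47) and HIST1H3H (0.06 ± 0.49) were near 0. HIST4H4 (0.24 ± 0.4), HIST1H4H (0.45 ± 0.4) and HIST1H4I (-0.33 ± 0.43) were not called either. The ATRA count of calls was 1 without knockout ATRA 1, 1 without knockout ATRA 3, 2 without knockout ATRA 2, knockout untreated 2 or control ATRA 2, and 6, of which 3 were lower, without control ATRA 3. With the near-identical pairs summed it was 0, with 0.359% of all genes called. With the GC trend removed it was 4, with HIST1H4D lower in place of HIST1H2BK higher.

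**Figure D4:**
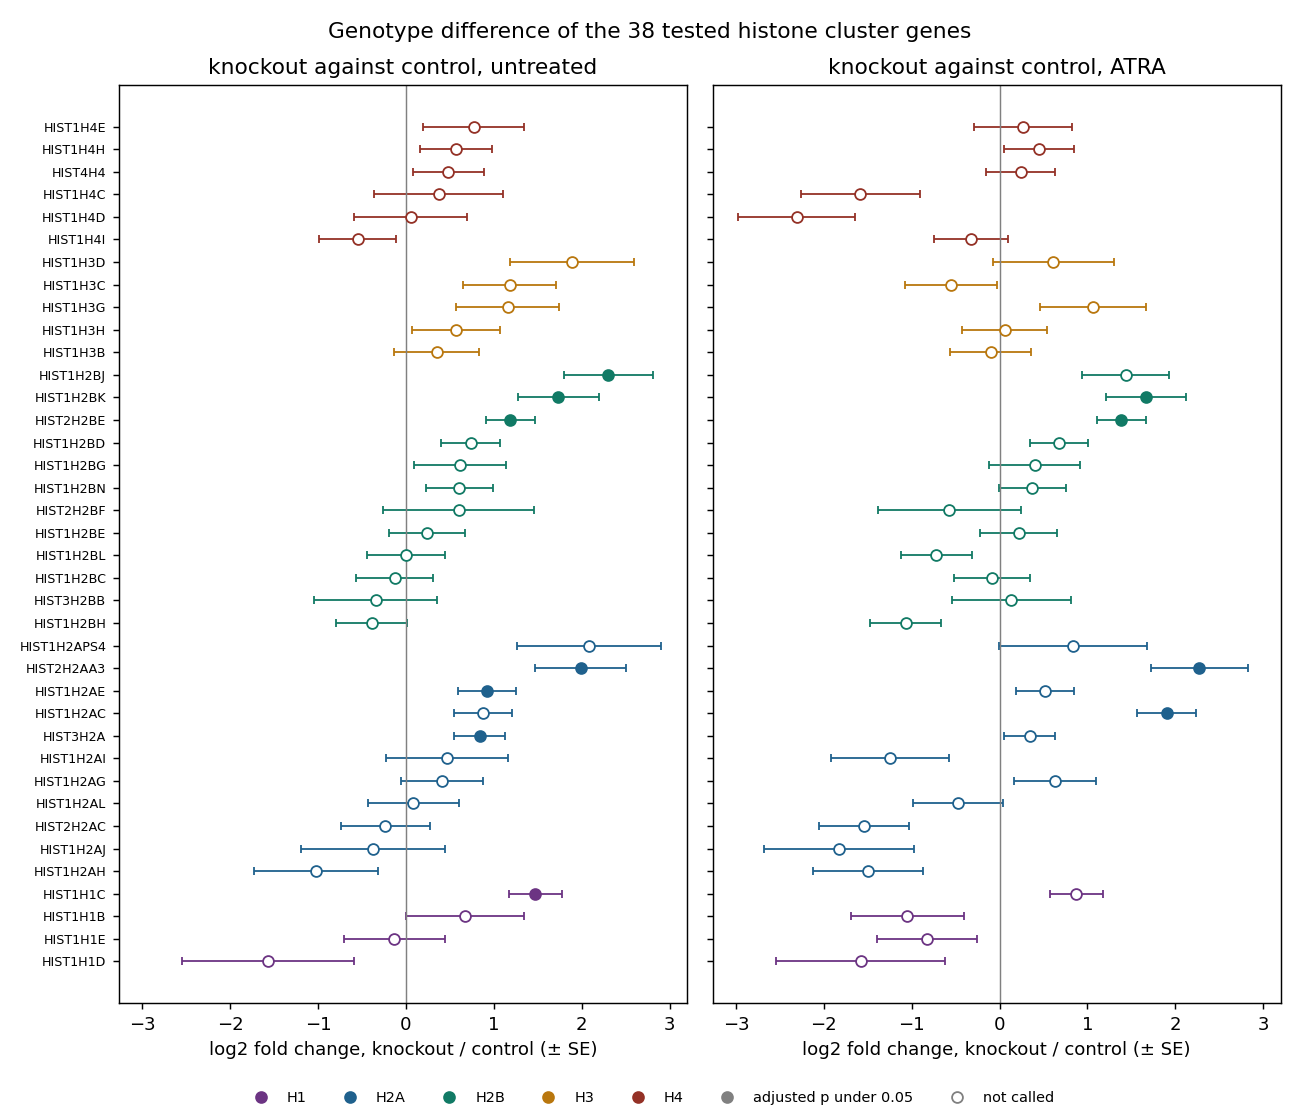
Points give the log2 fold change, knockout over control, with its SE, for the 38 tested histone members (y axis, grouped and coloured by histone type) in untreated cells (left) and with ATRA (right); filled points were called at an adjusted p under 0.05. The 7 filled points on the left and the 4 on the right are all above 0 and are H1, H2A or H2B genes.

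ATRA itself gave no called member in either genotype in the edgeR fit of all libraries. In control cells 0 of 38 were called by edgeR and by limma-voom, and 0 of the 35 to which DESeq2 gave an adjusted p, against 0.115% of all genes, with 4 higher and 0 lower at an unadjusted p under 0.05 (9.94% and 10.8% of all genes). The median log2 fold change was 0.46, with 32 members above 0 and 6 below, and that of all genes was -0.04. HIST1H1B, an H1 gene expressed in dividing cells, was among the 4, at 0.294, 0.317 and 0.187 CPM before and 1.91, 0.52 and 0.259 CPM after ATRA (log2 1.74 ± 0.65, adjusted p = 0.162), with overlap. Without control untreated 1 there were 2 calls, HIST1H4C and HIST1H3F, both higher. HIST1H3F was not tested in the fit of all libraries. Both genes passed the filter only with the help of controls with ATRA. HIST1H4C had 11 to 32 counts there and 4 to 14 elsewhere, and HIST1H3F 3 to 31 and 2 to 7. These 2 calls are thus no support for an ATRA effect. HIST1H4C, chosen after its values were seen, stood at 0.374, 0.106 and 0.0577 CPM before and 0.984, 0.832 and 0.285 CPM after ATRA. In the edgeR fit of all libraries its log2 fold change was 2.04 ± 0.68 (unadjusted p under 0.05, adjusted p = 0.13). Control ATRA 1 and 2 were the high libraries and control ATRA 3 was not.

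In knockout cells 0 of 38 were called for ATRA by edgeR (0.0314% of all genes) and by limma-voom, and 0 of the 33 to which DESeq2 gave an adjusted p, with 1 higher and 0 lower at an unadjusted p under 0.05 (7.09% and 4.58% of all genes), and the median log2 fold change was 0.02. The 1 was HIST1H2AC, which stood at 8.57, 9.91 and 19.4 CPM before and 17.9, 27.6 and 17.1 CPM after (log2 0.73 ± 0.33, adjusted p = 0.412), with overlap. The difference between the genotypes in their ATRA effect was tested as an interaction. It was called for 0 of 38 members by edgeR (0% of all genes) and by DESeq2 and limma-voom, with 1 higher and 2 lower at an unadjusted p under 0.05 (6.4% and 3.36% of all genes). For HIST1H2AC it was 1.03 ± 0.46 (adjusted p = 0.509). The genotype difference of no member was thus shown to depend on ATRA, although 4 members were called in untreated cells only and 1 with ATRA only.

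The 6 high genes and the other 83 rows had different patterns across libraries. The 6 genes summed to 37.4, 36.6 and 34.1 CPM in untreated controls and 67.2, 71.2 and 106 CPM in the untreated knockout, and to 48.6, 39.2 and 45.1 CPM against 95.9, 115 and 95.6 CPM with ATRA. The ratios of means were 2.26 and 2.31, and no libraries of the genotypes overlapped. All 6 had a log2 fold change above 0 in both comparisons, from 0.74 to 1.73 untreated and from 0.34 to 1.9 with ATRA, and 4 and 3 of them were called.

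The other 83 rows summed to 19.9, 16.1 and 17.1 CPM in untreated controls and 21.2, 20.6 and 38.2 CPM in the untreated knockout, a ratio of 1.5, and to 33, 30.2 and 16.4 CPM against 23.3, 27.6 and 20.3 CPM with ATRA, a ratio of 0.895. Untreated, the knockout libraries were above the controls by a small margin, and with ATRA the genotypes overlapped. The 32 of them that were tested had a median log2 fold change of 0.44 untreated and -0.09 with ATRA. The 6 high genes made up 65.3% to 69.4% of histone CPM in untreated controls and 73.5% to 77.6% in the untreated knockout, and 56.5% to 73.4% against 80.5% to 82.5% with ATRA.

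RNAs that do not end in a usual poly(A) tail were followed in the same libraries with a list of 22, such as RN7SK, the RNA part of RNase MRP (RMRP) and MALAT1. Of these 21 were in the table, 14 were tested and 0 were called in either genotype comparison. They summed to 84.4, 62.2 and 128 CPM in untreated controls, 211, 63.6 and 51.8 CPM in the untreated knockout, 223, 170 and 68.6 CPM in controls with ATRA and 197, 95.7 and 122 CPM in the knockout with ATRA. RNU1-1 and VTRNA1-1 were at or near 0 throughout. The list was high in control ATRA 1 and 2, the same libraries in which the other 83 histone rows were high, and low in control ATRA 3. It was also high in knockout untreated 1, where those rows were not, and low in knockout untreated 3, where they were highest. The part of carried-over untailed RNA in the histone values was not tested.

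**Figure D5:**
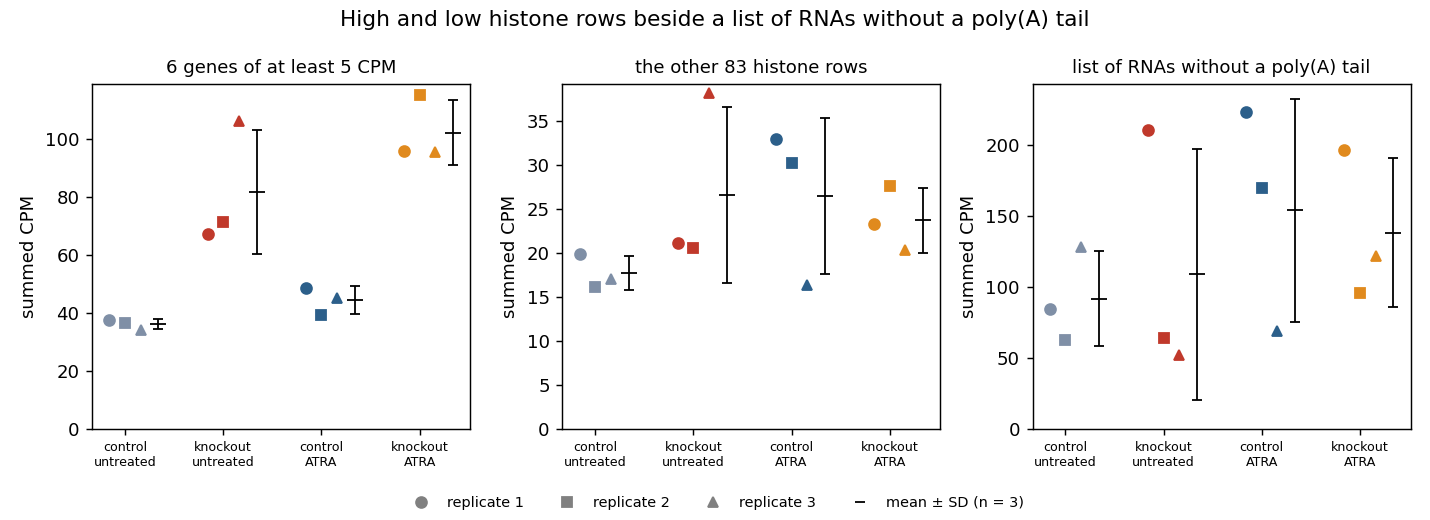
The panels give, for each of the 12 libraries by group, the summed CPM (y axis, from 0) of the 6 high histone genes, of the other 83 histone rows and of a list of RNAs without a usual poly(A) tail; symbols mark replicate numbers and the black bar is the mean ± SD of 3 libraries. The genotypes separate clearly in both conditions in the first panel (ratios 2.26 and 2.31), overlap with ATRA in the second, and control ATRA 1 and 2 are high in both of the other panels.

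Stromal markers moved with genotype as well. Of the 12 listed, 8 were called higher and 1 lower in the untreated knockout, and 4 higher with ATRA. FAP, a fibroblast surface protease, was at or near 0 in controls (at most 0.0923 CPM), and TWIST1, a mesenchymal transcription factor, was 4.51-fold higher in the untreated knockout (log2 2.17, adjusted p = 0.00142). The 6 high histone genes were highest within each knockout group in knockout untreated 3 and knockout ATRA 2 (106 and 115 CPM), the libraries with the lowest stromal sums of their groups. COL3A1 alone stood at 10570, 10920 and 1319 CPM in the untreated knockout. TWIST1 (48, 49.6 and 51.6 CPM), COL1A2, THY1 and PDGFRA were not lower in knockout untreated 3, and the other listed markers were. Without knockout untreated 3 and knockout ATRA 2 the untreated calls numbered 4, with HIST3H2A, HIST1H2AE and HIST1H2BK lost. The ATRA calls then numbered 2, with HIST1H2BK and HIST2H2AA3 lost. HIST2H2BE kept its size (1.25 untreated and 1.43 with ATRA on the log2 scale), while HIST1H2BK went from 1.73 to 1.3 untreated. The part of stromal content in the histone values was not tested. Fewer cells of a type and less RNA per cell cannot be told apart in such bulk libraries.

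Promoter sequences were compared because many H2A and H2B genes are arranged head to head and share 1 promoter region. RefSeq promoters on GRCh38.p14, from 250 bases before to 50 after the start, were found for 66 of 89 members, 70 promoters in all. The CCAAT box (letters CCAAT), the TATA box (letters TATAAA) and the octamer (letters ATTTGCAT) were searched on both strands; none contains another, though TTTATAAA holds TATAAA on both strands. CCAAT was in 85.7% of the 70, against 34.5% of 35046 other promoters, TATAAA in 67.1% against 11.4%, and the octamer, a motif bound by POU2F1, in 38.6% against 1.7%. The octamer was in 15 of 20 H2B and 11 of 16 H2A promoters but in 0 of 6 H1, 1 of 15 H3 and 0 of 13 H4 promoters. CCAAT was in 3 of 13 H4 promoters and in all 57 others of the members. These are matches of letters in a window, with no measured binding.

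The 250 bases before the start are printed for HIST2H2BE (chr1:149886683-149886932, minus strand) and HIST1H2AC (chr6:26123922-26124171, plus strand). Each of these stretches spans the gap to a head-to-head partner. The same bases are printed for HIST1H1C (chr6:26056471-26056720, minus strand), which has no octamer. Capitals mark the motifs on either strand, and each sequence reads 5′ to 3′ on the gene's strand.
HIST2H2BE: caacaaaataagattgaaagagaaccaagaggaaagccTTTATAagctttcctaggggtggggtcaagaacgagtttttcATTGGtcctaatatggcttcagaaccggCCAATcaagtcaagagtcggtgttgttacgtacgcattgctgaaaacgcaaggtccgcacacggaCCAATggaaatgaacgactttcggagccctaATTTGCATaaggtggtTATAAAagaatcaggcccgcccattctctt
HIST1H2AC: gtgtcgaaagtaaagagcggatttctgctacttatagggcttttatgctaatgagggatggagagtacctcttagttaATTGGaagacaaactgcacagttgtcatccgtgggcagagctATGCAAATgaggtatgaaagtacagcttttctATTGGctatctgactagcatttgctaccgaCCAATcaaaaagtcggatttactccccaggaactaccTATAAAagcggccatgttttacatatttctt
HIST1H1C: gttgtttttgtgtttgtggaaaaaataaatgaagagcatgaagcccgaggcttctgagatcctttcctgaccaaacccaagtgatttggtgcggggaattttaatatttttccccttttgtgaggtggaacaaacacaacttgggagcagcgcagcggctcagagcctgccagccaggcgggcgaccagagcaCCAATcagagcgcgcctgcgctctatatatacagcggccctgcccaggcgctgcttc

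There were 13 head-to-head pairs with starts within 1000 bases. Some partners had unlike levels and others close ones, and the pairs below were chosen after their values were seen. HIST1H2AC stood at 6.88 CPM per kb and its partner HIST1H2BC, 244 bases away, at 0.694. HIST3H2A stood at 17.8 and HIST3H2BB, 228 bases away, at 0.524. HIST2H2BE stood at 2.93 and HIST2H2AC, 234 bases away, at 2.05. In the first 2 pairs 1 partner held most of the signal. The partners HIST1H2BG and HIST1H2AE stood at 1.52 and 1.99 CPM per kb, HIST1H2BL and HIST1H2AI at 0.663 and 0.489, and HIST1H2AJ and HIST1H2BM at 0.391 and 0.317. These are closer than the first 2 pairs.

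The genotype differences of partners were unlike in some pairs. HIST2H2BE and HIST2H2AC had log2 fold changes of 1.19 and -0.23 untreated and 1.39 and -1.54 with ATRA. HIST1H2AC and HIST1H2BC had 0.88 and -0.13 untreated and 1.9 and -0.09 with ATRA (adjusted p = 0.84 and 0.92 for HIST1H2BC). HIST1H2BJ and HIST1H2AG, 246 bases apart, had 2.3 and 0.41 untreated (adjusted p = 0.508 for HIST1H2AG). In other pairs they were closer or had the same sign: HIST1H2BG and HIST1H2AE had 0.62 and 0.93 untreated, and HIST1H2BL and HIST1H2AI had -0.72 and -1.24 with ATRA (adjusted p = 0.267 and 0.247). The difference between partners was not tested. In transcripts that keep the stem-loop, HIST2H2BE and HIST1H2AC have a long annotated tail past it and HIST1H2BJ does not. The longest annotated transcript of HIST1H2BJ has 950 bases. The strand setting of the counting is not given in the sources used here, so reads of overlapping or antisense transcripts cannot be assigned with certainty.

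Genes that act on histone messages were mostly lower or not called in the knockout. Of 23 genes for histone 3′ end processing and stem-loop binding, 1 was called higher and 11 lower in untreated cells (median log2 -0.67, against -0.11 for all genes), and 0 and 2 with ATRA. The endonuclease CPSF3 fell by 2.17 on the log2 scale (adjusted p = 0.0029) and the cap-binding subunit NCBP2 by 1.96 (0.00297). SLBP itself was at 57.6 to 72.2 CPM in untreated controls and 54.6 to 75.3 CPM in the knockout (log2 -0.01 ± 0.2, adjusted p = 0.965), with overlap. NPAT, the coactivator of histone gene transcription in S phase, stood at 7.26, 12 and 16.5 CPM in untreated controls and 4.78, 4.29 and 3.77 CPM in the knockout (log2 -1.48 ± 0.49, adjusted p = 0.0355), and with ATRA the difference was -1.32 (adjusted p = 0.106). The knockout libraries were the lower ones for NPAT while the high histone genes were higher.

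Of 16 genes for general poly(A) addition and nuclear decay, 0 were called higher and 7 lower in untreated cells and 0 and 1 with ATRA. The poly(A) polymerase PAPOLG fell by 2.3 (adjusted p = 0.00521) and PAPD5, which adds short tails to RNAs for decay, by 1.3 (0.00664). Of 28 genes of S phase and histone gene control, 7 were higher and 6 lower untreated, and 1 and 2 with ATRA. The cell-cycle inhibitor gene CDKN1A was 12.9-fold higher (log2 3.69 ± 0.3, adjusted p = 0.000167), and the S-phase cyclin gene CCNA2 fell by 1.32 (0.00363).

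Messages of replication-independent histone variants mostly have ordinary tails. Of 12 tested genes for such variants, 3 were higher and 2 lower untreated, and 0 and 1 with ATRA. The macroH2A gene H2AFY was higher (log2 1.14 ± 0.34, adjusted p = 0.0222) and the centromeric H3 gene CENPA lower (-1.07 ± 0.23, 0.00684). Of 20 histone chaperone and acetylation genes, 1 was higher and 8 lower untreated, and 0 and 2 with ATRA, with NAP1L1 at -1.67 and RBBP7 at -1.23 (adjusted p = 0.00555 and 0.00384). Of 10 pluripotency markers 0 were higher and 2 lower untreated, SOX2 (-1.8, adjusted p = 0.00736) and LIN28B (-1.59, 0.0181), and 0 and 1 with ATRA. In untreated cells 13% of all genes were called higher and 21.9% lower.

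Among the rows that were not tested, 3 had counts in 1 genotype only, all in the knockout. HIST1H3E had 2 counts in knockout untreated 1 and 1 in knockout ATRA 2, HIST2H3A had 1 count in knockout untreated 3 and HIST2H3DP1 had 1 count in knockout ATRA 1. These counts are too few for any comparison. Near-identical copies also limit the low rows: 11 of 89 members had under 1% of unique 50-base words, and 4 of these had no counts.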

How the data were processed

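Per the labels' protocols, sequencing libraries came from a stranded mRNA kit (Illumina TruSeq). The authors deposited raw counts per gene and, as another column, a length per gene in bases. The submitters' processing notes name bcl2fastq, TopHat2, Subread, featureCounts and DESeq2 and the builds hg19 and GRCh37; for their versions, the strand setting and multi-mapping reads, the answer is not given in the sources used here. All 12 count columns were used.

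Counts were tested with edgeR 4.0.16 in R 4.3.3 (TMM, filterByExpr with a minimum count of 10, 1 coefficient for each of 4 groups, quasi-likelihood F-test), with Benjamini-Hochberg adjustment over 19130 genes and a threshold of 0.05. Libraries totalled 25.5 to 60.4 M counts. CPM used these totals multiplied by TMM factors, and on that scale 3 counts are worth 0.0433 to 0.128 CPM. The common coefficient of variation was 0.367. Intervals are not given for single values. Limma 3.58.1 (voom) and DESeq2 1.42.0 were alternatives, with RLE scaling, other filters, a replicate block, summed or left-out libraries, a GC offset and thinning; the last 2 were added after the data were seen. Scripts were tested on simulated data.

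Members and lists were chosen with earlier results of these data known. Named members were the 3 tested members of highest mean CPM of each histone type, up to 6 called members per comparison and direction, members with counts in 1 genotype only, PRMT6, and in each list the 2 called genes of smallest adjusted p with SLBP, NPAT and CDKN1A. Symbols were matched to RefSeq and GENCODE v44 for sequences, lengths, GC content and neighbours; both are on GRCh38 while counts are on hg19; all 89 members matched, and GC content was available for 16379 of 19130 tested genes and all 38 tested members.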

Additional observations from a re-analysis of the deposited data

How the results depend on the processing

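Untreated, the main count of 7 called members became 11 with DESeq2, 2 with the near-identical knockout pairs summed, 4 without knockout untreated 3 and knockout ATRA 2 together, 4 with the GC trend removed and 3 to 9 when 1 library was left out. With ATRA the count of 4 became 8 with DESeq2 (6 higher, 2 lower), 0 with the pairs summed, 2 without both libraries and 1 to 6 when 1 library was left out. For ATRA in controls the count of 0 became 1 without a filter on low counts and 0 to 2 when 1 library was left out; for ATRA in the knockout and for the interaction it was 0 in every alternative run. Besides the replicate block, given next, the other alternatives moved no count by more than 1.5 times.

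With the replicate number as a block, the counts were 5 untreated and 2 with ATRA. The numbers do not pair the libraries: of 18 same-numbered pairs, whose deviations correlated from -0.59 to 0.512, 4 were over 0.1 and 4 correlated best with their own number.

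Signs reversed only for uncalled members. When 1 library was left out, HIST1H1E untreated ran from -0.387 to 0.264 and HIST2H2AC untreated from -0.583 to 0.075, and HIST1H3B untreated became -0.268 with the GC trend removed. With ATRA, leaving out 1 library gave HIST1H1B -1.463 to 0.133, HIST1H4I -0.491 to 0.088, HIST1H3B -0.369 to 0.082 and HIST1H3H -0.219 to 0.465. Without both libraries HIST1H3B was 0.068 and HIST1H3H -0.139. With the GC trend removed HIST3H2A was -0.017 and HIST1H3H -0.157, and thinning to equal depth gave -0.192 for HIST1H3H. The causes were not tested.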
